A study of Mus musculus with 2 samples.

Results

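The 10 genes described here, of 32285 in the matrix, are Acta2, Tagln, Myh11, Cnn1, Des, Myl9, Tpm2, Pdgfrb, Pdgfra and Rgs5, used as markers of smooth muscle cells, myofibroblasts, fibroblasts and pericytes. They were chosen by symbol, and all 10 were found once in the matrix. Their levels are given in fibroblasts, in 3 small fibroblast groups marked by C7, Crabp1 or Adipoq, and in mast cells and macrophages of the same culture. The material was 1 pooled single-cell library with no genotype or treatment contrast. It started from aortic tissue of 2 C57BL/6J mice, both male and 12 weeks old. Digested cells formed colonies over 14 days in methylcellulose, a viscous gel that keeps the offspring of a progenitor together. Macrophage colonies (CFU-M) were then taken apart, viable cells were sorted with DAPI, and the cells were labelled with MULTI-seq lipid tags and pooled. Perivascular fat had been dissected away before digestion, and no cell can be tied to an animal. With 1 library there was no replicate, so no test was made. All intervals below are exact 95% intervals that cover counting error only.

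Smooth muscle cells contract through actin and myosin filaments. Acta2 encodes the smooth muscle alpha actin, Myh11 the smooth muscle myosin heavy chain, Myl9 a regulatory myosin light chain and Tpm2 a tropomyosin that lies along actin. Tagln (transgelin) and Cnn1 (calponin) encode actin-binding proteins of the same cells, and Des encodes the intermediate filament protein desmin. Acta2 and Tagln are also switched on in myofibroblasts, fibroblasts that acquire contractile filaments, whereas Myh11 is regarded as the stricter smooth muscle marker. Pdgfrb and Pdgfra are the receptors for platelet-derived growth factors, the first typical of mural cells and the second of fibroblasts. Rgs5 encodes a regulator of G protein signalling and is a widely used pericyte marker.

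Many contractile genes are driven by serum response factor, which binds the CArG box, a motif of CC, 6 bases of A or T, and GG. Promoter sequence from RefSeq (build GRCm38.p6) was used for 7 members, namely Acta2, Cnn1, Des, Myl9, Tpm2, Pdgfra and Rgs5. Promoter entries for Tagln, Myh11 and Pdgfrb were not used. The motif was searched on both strands in the 250 bases before the annotated start, in full or with 1 base off in the A/T stretch. Full boxes were found in 1.467% of 32851 mouse promoters of this length, boxes with 1 base off in 7.245%, and either kind in 8.593%. Of the 7 members, Acta2 and Myl9 held such a match, and these sites are shown because both genes are described together in the same cells further on. The capitals mark the motif, each run is 30 bases long and the name gives its place and strand.
Acta2, 1 base off, chr19:34255438-34255467, minus strand, motif starting 84 bases upstream: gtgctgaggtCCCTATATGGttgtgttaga
Acta2, 1 base off, chr19:34255388-34255417, minus strand, motif starting 34 bases upstream: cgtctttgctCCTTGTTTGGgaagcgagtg
Myl9, full box, chr2:156775293-156775322, plus strand, motif starting 161 bases upstream: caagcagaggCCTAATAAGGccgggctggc
Myl9, 1 base off, chr2:156775355-156775384, plus strand, motif starting 99 bases upstream: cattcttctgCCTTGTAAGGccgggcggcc
These matches describe letters in the genome and were not measured as binding sites. In GENCODE M21 (GRCm38) Acta2 spans chromosome 19 from 34241090 to 34255590 on the minus strand, so both of its sites lie within the gene's annotated span. Myl9 spans chromosome 2 from 156775420 to 156781658 on the plus strand. The Tagln gene (chromosome 9, 45929619 to 45936058, minus strand) overlaps Pcsk7 and Gm48529 on the other strand, and whether the counting used strand is not given in the sources used here.

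Fibroblasts were defined as cells in which Col1a1, Col1a2, Col3a1 and Dcn together reached 0.3% of gene UMIs (unique molecular identifiers, 1 for each captured RNA molecule). Mast cells were defined by 2% or more from the mast cell proteases Cma1 and Cpa3. Macrophages were defined by 0.3% or more from the complement genes C1qa, C1qb and C1qc with the receptor Csf1r. Of 30755 cells kept, 4716 were fibroblasts (median 30441 UMIs), 22426 mast cells (median 11433), 2195 macrophages (median 8178), and 1418 fell in no class (median 24436). All 12 further fibroblast genes, such as Lum, Sparc and Bgn, were at least 2-fold higher in the fibroblasts than in either other class. Mast cell genes were nevertheless present in fibroblasts, with 7 of them summing to 8489 CPM (UMIs of a gene scaled to 1000000 gene UMIs) against 61071 CPM in mast cells, although the median Cma1 and Cpa3 sum per cell was 0.119% in fibroblasts and 4.12% in mast cells. The cut is a range rather than a boundary between types, with 190 cells at 0.25% to 0.3% and 131 at 0.3% to 0.35%, and 216 of the fibroblasts also reached the mast cell sum.

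The PDGF receptors and Tpm2 were the abundant members in fibroblasts, Acta2 and Tagln were moderate on average, and the markers of mature smooth muscle were close to absent. UMIs from the 3′ end count molecules, so levels of different genes are set side by side on the CPM scale without a correction for gene length. Whether reads in introns were counted is not given, and an effect of gene length on the order below was not tested. In fibroblasts the order was Pdgfrb at 185 CPM (95% interval 183 to 187), Pdgfra at 152 (150 to 154), Tpm2 at 90.3 (88.8 to 91.9), Tagln at 42.1 (41.1 to 43.2) and Acta2 at 23.7 (22.9 to 24.5). Much lower came Myl9 at 2.73 CPM (2.47 to 3.01), Rgs5 at 1.97 (1.75 to 2.21), Des at 1.34 (1.16 to 1.54), Myh11 at 0.420 (0.322 to 0.539) and Cnn1 at 0.0746 (0.0372 to 0.133). No neighbours in this order had overlapping counting intervals. The Cnn1 value rests on 11 UMIs among 4716 cells.

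**Figure D1:**
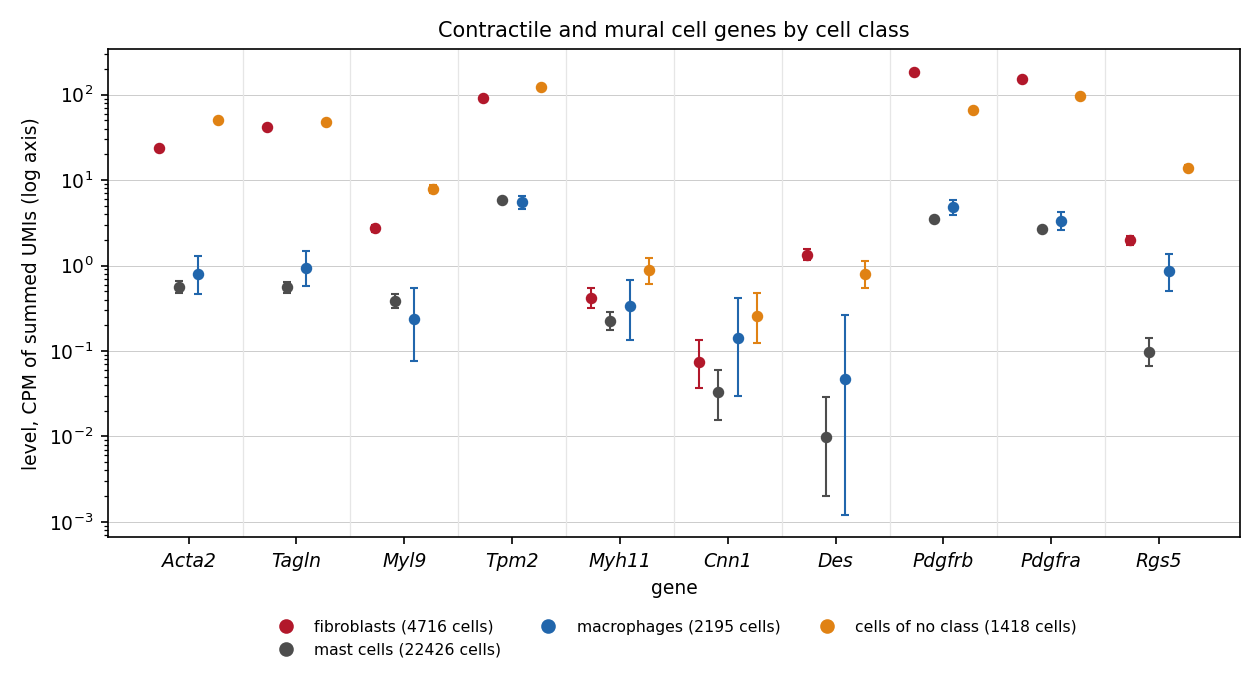
Level of each of the 10 genes (x axis) in CPM of summed UMIs (log y axis) in fibroblasts, mast cells, macrophages and cells of no class, with exact Poisson 95% intervals as bars. Pdgfrb, Pdgfra, Tpm2, Tagln and Acta2 lie far above both immune classes, whereas the Myh11 and Cnn1 points of the 3 named classes lie close together.

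Mast cells and macrophages carried low levels of nearly all members. Acta2 was 0.560 CPM (0.480 to 0.651) in mast cells and 0.806 CPM (0.470 to 1.29) in macrophages. Tagln was 0.557 CPM (0.477 to 0.647) and 0.949 CPM (0.580 to 1.47) in the same order. Fibroblasts were thus 42.3-fold above mast cells for Acta2 and 75.6-fold for Tagln.

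Pdgfrb was 3.51 CPM (3.31 to 3.73) in mast cells and 4.84 CPM (3.95 to 5.87) in macrophages. Pdgfra was 2.65 CPM (2.47 to 2.84) and 3.37 CPM (2.63 to 4.25). Fibroblasts exceeded mast cells 52.7-fold for Pdgfrb and 57.5-fold for Pdgfra. Tpm2 showed the smallest ratio of the 5 abundant members, 15.6-fold over mast cells at 5.77 CPM (5.51 to 6.05) and 16.4-fold over macrophages at 5.50 CPM (4.55 to 6.60).

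A gene counted as differing when 1 group was at least 2-fold above the other and at 10 CPM or more. Of the 10 members, 5 reached 10 CPM in 1 of both groups, and these 5 were higher in fibroblasts than in mast cells, where 22.9% of 9409 genes were, and higher than in macrophages, where 20.4% of 9488 genes were. All 5 reached 10 CPM through the fibroblasts alone, being at 0.557 to 5.77 CPM in the immune classes, so nothing is read from this count. Among the 20 listed genes of the smooth muscle contractile apparatus, 12 were tested and 6 were higher in fibroblasts than in mast cells. For the 13 non-muscle cytoskeleton genes, 4 were higher and 3 lower.

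Free RNA in a droplet suspension can give UMIs in cells that do not express a gene, so the low level in immune cells was set beside that of other fibroblast genes. Over 12 fibroblast genes outside the definition, the mast cell level was 1.29% to 2.58% of the fibroblast level (median 1.79%). Tagln at 1.32%, Pdgfra at 1.74%, Pdgfrb at 1.90% and Acta2 at 2.36% lay within that range. Tpm2 at 6.39% lay above it, as did Rgs5 at 4.98% and Myl9 at 14.1%, while Des at 0.732%, from 3 mast cell UMIs, lay below it. In macrophages the range of the same genes was 1.56% to 3.97%. There Tpm2 at 6.09%, Myl9 at 8.68% and Rgs5 at 43.3% also lay above it. Tagln, Pdgfra, Pdgfrb and Acta2 lay within it, and so did Des at 3.53%, from 1 UMI. The part of free RNA in these levels was not tested.

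Myh11 and Cnn1 were near the level of the immune cells. Myh11 was 0.226 CPM (0.176 to 0.286) in mast cells, or 53.8% of the fibroblast level, and 0.332 CPM (0.134 to 0.684) in macrophages. With each cell thinned to 6000 UMIs, Myh11 was detected in 0.221% of fibroblasts (0.106% to 0.405%), in 0.107% of mast cells (0.0674% to 0.163%) and in 0.124% of macrophages (0.0150% to 0.447%). On the CPM scale the fibroblast and mast cell intervals of Myh11 did not overlap, a ratio of 1.86, but the shares at matched depth did, so a difference in shares was not detectable at this depth. The 53.8% lies far outside the 1.29% to 2.58% of the 12 fibroblast genes. Cnn1 gave 10 UMIs in all mast cells and 3 in all macrophages, and its intervals in the 3 classes overlapped as well.

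Desmin was low and, among the named classes, mostly found in fibroblasts. Des had 198 UMIs in fibroblasts, 3 in mast cells and 1 in macrophages. The corresponding levels of Des were 1.34 CPM (1.16 to 1.54), 0.00983 CPM (0.00203 to 0.0287) and 0.0474 CPM (0.00120 to 0.264). Cells of no class held 31 Des UMIs, or 0.802 CPM (0.545 to 1.14). Rgs5 was 1.97 CPM in fibroblasts, 0.0983 CPM (0.0663 to 0.140) in mast cells and 0.854 CPM (0.506 to 1.35) in macrophages, where 6 of its 18 UMIs came from 1 cell.

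Other pericyte genes were unevenly represented in the fibroblasts. Ndufa4l2 stood at 586 CPM (582 to 590), and Abcc9, a potassium channel subunit, at 35.1 CPM (34.1 to 36.1). Cspg4, the NG2 proteoglycan, was at 21.6 CPM (20.9 to 22.4) and the receptor Notch3 at 12.8 CPM (12.3 to 13.4). The pericyte markers Kcnj8 at 2.35 CPM (2.11 to 2.61) and Higd1b at 0.0543 CPM (0.0234 to 0.107) were low, like Rgs5. The smooth muscle genes Acta2, Tagln, Myh11 and Cnn1 were detected together in 1 fibroblast, before thinning.

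Acta2 and Tagln were concentrated in few fibroblasts, whereas the PDGF receptors were spread over most of them. To compare cells at 1 depth, fibroblasts were thinned to 12500 UMIs, which kept 4259 and left out 457 shallower ones. Shares below come from the thinned UMIs, and levels in CPM from all UMIs of the same cells. Acta2 was then detected in 9.27% (8.42% to 10.2%) and Tagln in 13.9% (12.9% to 15.0%). Tpm2 was detected in 53.0% (51.5% to 54.5%), Pdgfrb in 78.2% (76.9% to 79.4%) and Pdgfra in 77.6% (76.3% to 78.8%).

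The 43 cells with the most Acta2, 1% of the total, held 43.6% of its thinned UMIs, and the top 43 cells for Tagln held 39.6%. For Tpm2, Pdgfrb and Pdgfra the top 43 cells held 7.91%, 5.18% and 5.81%. This share also depends on level: it was 63.8% for Myl9, 72.1% for Des, 73.1% for Rgs5 and 100% for Myh11 and Cnn1. The variance of the thinned counts over their mean was 6.93 for Acta2 and 13.1 for Tagln. It was 2.07 for Tpm2, 2.15 for Pdgfrb, 1.90 for Pdgfra, 1.80 for Myl9, 1.16 for Des and 2.28 for Rgs5. The highest single cell had 35 thinned UMIs of Acta2, and the highest for Tagln had 88. Counts of 5 UMIs or more were reached by 43 cells for Acta2 and 96 for Tagln.

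**Figure D2:**
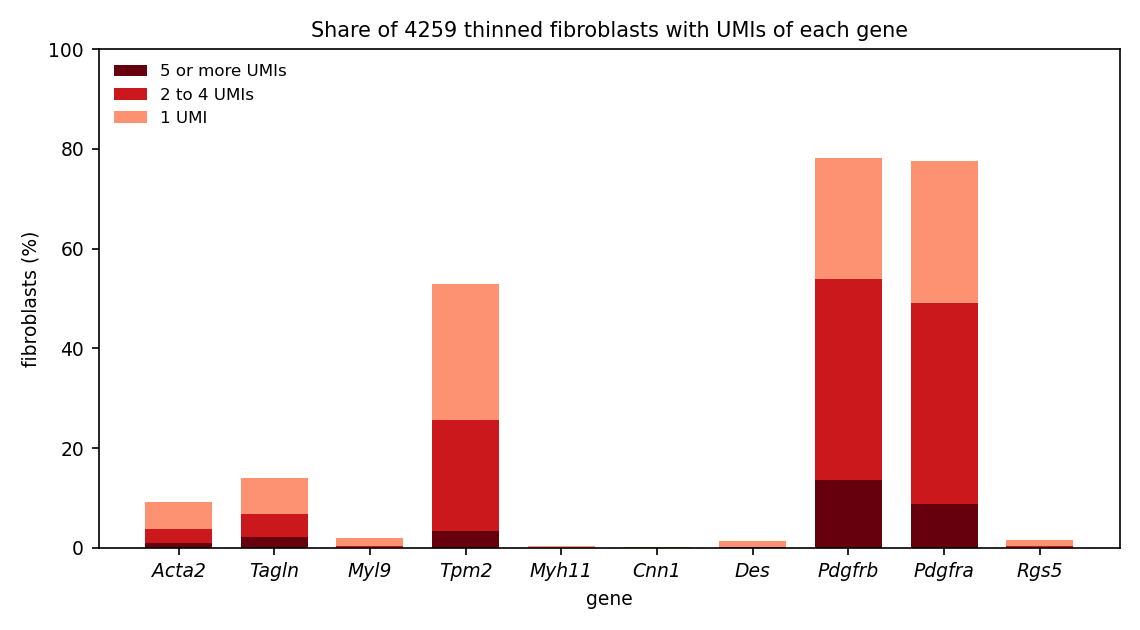
Share of the 4259 thinned fibroblasts (y axis, %) with 1, 2 to 4, or 5 or more UMIs of each gene (x axis), stacked. Pdgfrb and Pdgfra were detected in 78.2% and 77.6% of cells, while Acta2 and Tagln reached 9.27% and 13.9%, with a larger part of their detected cells at 2 UMIs or more than for Myl9, Des or Rgs5.

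Acta2, Tagln, Myl9 and Tpm2 were often found in the same cells. Of 395 thinned fibroblasts with Acta2, 48.4% also had Tagln, against 13.9% of all thinned fibroblasts. Of 85 cells with Myl9, 51.8% had Acta2 and 50.6% had Tagln. Tpm2 was present in 80.3% of the Acta2 cells, against 53.0% of all thinned fibroblasts. The rarer genes gave few shared cells: Des was in 2.53% of the Acta2 cells (10 cells) against 1.46% of all, Acta2 and Myh11 were together in 2 cells, and Des and Myl9 in 1. Pdgfrb was found in 84.3% of the Acta2 cells against 78.2% of all, and Pdgfra in 77.2% against 77.6% of all. Both receptors were detected in 61.6% of thinned fibroblasts, and 78.8% of the Pdgfrb cells also had Pdgfra.

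The 5 genes whose thinned counts were most alike to Acta2 across the 4259 cells, by Pearson correlation of log counts among 12857 genes, were Tagln (0.507), Actg1 (0.313), Tuba1a (0.302), Tpm2 (0.299) and Actb (0.299). These cells share 1 library and were thinned to 1 depth, and the coefficients are descriptive. For Rgs5 the highest coefficient was 0.146, with Chrm3, and for Myh11, detected in 14 cells, it was 0.0876. Coefficients that weak in sparse counts are no finding.

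The cells with 5 or more thinned UMIs of Acta2 and Tagln together were next set against those with none, a split chosen after the distribution had been seen. There were 135 such cells against 3461, with 34 cells at exactly 5 UMIs and 49 just outside at 4. Acta2 at 372 CPM against 2.41 and Tagln at 654 CPM against 4.06 are what the split selects. Of the other members, Myl9 stood at 33.8 CPM (29.3 to 38.9) against 0.881 CPM (0.717 to 1.07), a 38.4-fold difference. Tpm2 stood at 290 CPM (276 to 304) against 69.9 CPM (68.4 to 71.5), a 4.14-fold difference. Of 6 members tested 4 were higher, 2 of them by the split itself, where 3.52% of 8983 genes were. Myl9 reached 10 CPM through the high cells alone, so nothing is read from this count. Of the 135 high cells, 39 carried more than 1 tag (the tags are described at the end). When the split was recomputed with such fibroblasts left out, it gave 95 high cells, with log2 ratios of 5.54 for Myl9 and 2.07 for Tpm2.

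The receptors were nearly level across that split. Pdgfrb was 193 CPM (182 to 204) in the high cells and 180 CPM (178 to 183) in the cells with none. Pdgfra was lower in the high cells, at 123 CPM (115 to 133) against 152 CPM (150 to 155), a ratio of 0.811 that stays inside the 2-fold limit. Des was 4.29 CPM (2.78 to 6.34) against 1.20 CPM (1.00 to 1.42), from 25 and 136 UMIs. Rgs5 gave 3 UMIs in the high cells, 0.515 CPM (0.106 to 1.51), against 2.25 CPM (1.99 to 2.55). Of the genes that define fibroblasts, Dcn was 2.42-fold lower, at 681 CPM against 1649, and the collagens stayed within 2-fold. Of the further fibroblast genes, Mmp2 was 3.14-fold and Serping1 2.40-fold lower, and the others stayed within 2-fold. Over all 8983 genes tested, 2.81% were lower.

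Myh11, Cnn1 and Myocd were low in the high cells, with counting intervals that overlapped those of the cells with none. Myh11 had 5 UMIs there, 0.859 CPM (0.279 to 2.00), against 0.388 CPM (0.282 to 0.520). Cnn1 had 2 UMIs, 0.344 CPM (0.0416 to 1.24), against 0.0705 CPM (0.0304 to 0.139). Myocd, the coactivator that drives smooth muscle genes, had 3 UMIs, 0.515 CPM (0.106 to 1.51), against 0.106 CPM (0.0546 to 0.185). The related genes Actg2 and Lmod1 stayed under the 10 CPM limit but were higher in the high cells. Actg2, the enteric smooth muscle actin, was at 7.39 CPM (5.35 to 9.95) against 0.132 CPM (0.0739 to 0.218), a 55.9-fold difference from 43 and 15 UMIs. Lmod1, a leiomodin of smooth muscle, was at 8.07 CPM (5.93 to 10.7) against 0.934 CPM (0.764 to 1.13), an 8.65-fold difference.

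Of the listed smooth muscle apparatus genes, 12 of 20 were tested in this split, 5 were higher and none lower by 2-fold. These 5 were Tpm1 (2.76-fold), Cald1 (2.12-fold), Csrp1 (2.01-fold), the filamin Flna (3.14-fold) and the alpha actinin Actn1 (2.77-fold). The median log2 ratio of the 12 was 0.69, beside 0.02 over all genes tested. Of the 13 non-muscle cytoskeleton genes, 5 were higher: Actb at 2.60-fold, Actg1 at 2.90-fold, Tpm4 at 2.96-fold, Myl12a at 2.20-fold and Cnn2 at 5.06-fold.

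Among 10 myofibroblast genes, 9 were tested and 4 were higher. These were Ccn2, a matricellular growth factor (3.89-fold), the collagen Col8a1 (3.02-fold), Thy1 (2.51-fold) and Ltbp2 (2.03-fold). Postn, the matrix protein periostin, was 461 CPM (444 to 479) against 266 CPM (263 to 269), under 2-fold. Of 9 tested PDGF and TGF-beta pathway genes 2 were lower, where 2.81% of 8983 genes were, namely Tgfbr2 at 69.9 CPM against 166 and Tgfb2 at 25.9 CPM against 56.0. Of the pericyte genes, Cspg4 was 2.36-fold higher, and Abcc9 was 7.90-fold lower at 5.15 CPM (3.48 to 7.36) against 40.7 CPM (39.5 to 41.9).

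**Figure D3:**
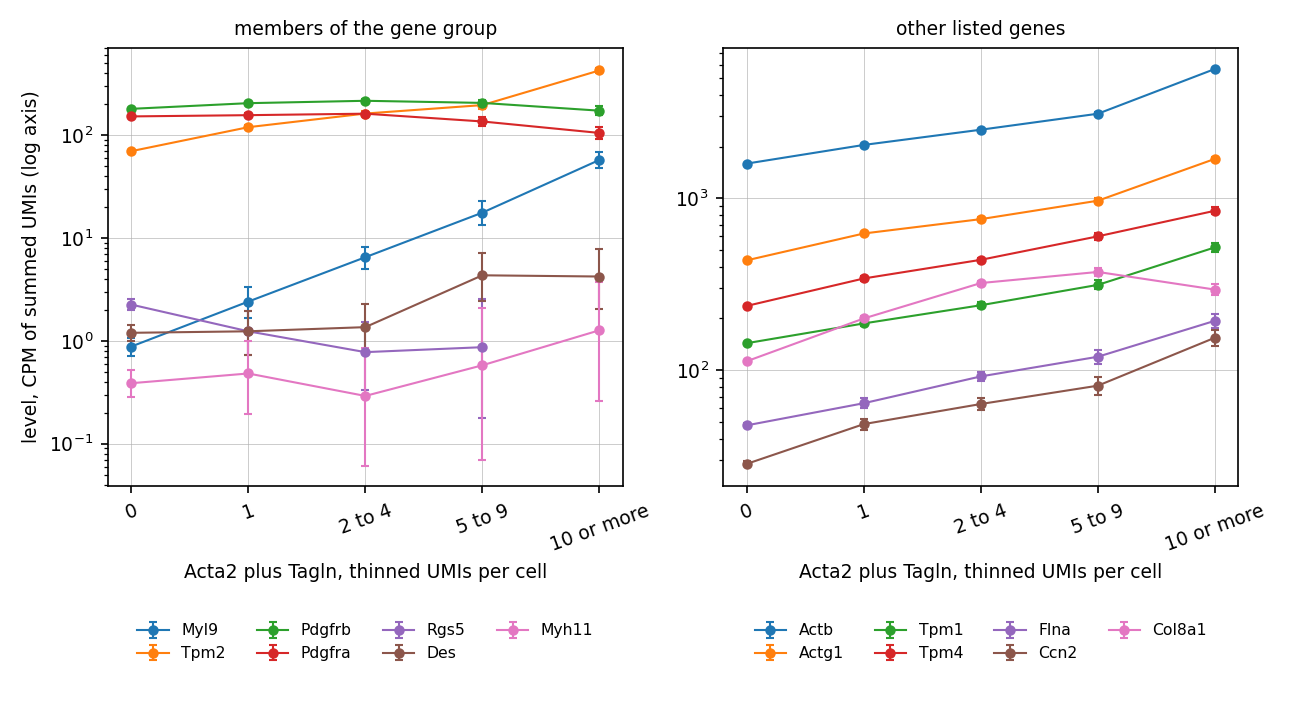
Level in CPM of summed UMIs (log y axis) of members (left) and of other listed genes (right) by the number of thinned Acta2 plus Tagln UMIs per fibroblast (x axis), with exact Poisson 95% intervals; a level at 0 UMIs is not drawn. Myl9 and Tpm2 are higher in each successive bin, Pdgfrb and Pdgfra stay within 2-fold, and Actb, Actg1, Tpm1, Tpm4, Flna and Ccn2 are higher in each bin.

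Across 5 bins of Acta2 plus Tagln, Tpm2 and Myl9 were graded. Tpm2 was 69.9, 120, 162, 196 and 426 CPM in cells with 0, 1, 2 to 4, 5 to 9, and 10 or more UMIs. Myl9 was 0.881, 2.41, 6.51, 17.7 and 57.5 CPM in the same bins. Actb, the cytoplasmic actin, was 1592, 2044, 2507, 3105 and 5656 CPM. The bins held 3461, 390, 273, 84 and 51 cells.

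Dividing cells were more frequent where Acta2 and Tagln were high. The share of fibroblasts with 2 or more thinned UMIs from 6 dividing-cell genes was 19.7% in cells with no Acta2 or Tagln and 42.9% and 49.0% in the 2 highest bins, and all 6 of those genes were at least 2-fold higher in the high cells. Among the members, Acta2 was 57.5 CPM (55.1 to 60.0) in the 975 dividing fibroblasts against 11.2 CPM (10.4 to 12.1) in those with no dividing-cell UMI, and Tagln was 2.03-fold higher. These were 2 of 5 tested members, where 2.5% of 8887 genes were higher. The dividing-cell genes were also present in mast cells, summing to 532 CPM against 193 CPM in all fibroblasts, and the 7 mast cell genes summed to 9406 CPM in the dividing fibroblasts and 7854 CPM in those with no dividing-cell UMI. The part of RNA from other cells in these shares was not tested. Median depth before thinning also differed between the bins, at 30974 UMIs with none and 39134 and 43709 in those bins. With every cell holding a dividing-cell UMI left out, 41 high cells and 1790 cells with none remained. Myl9 was then 37.9 CPM (29.1 to 48.5) against 0.653 CPM (0.459 to 0.899), and Tpm2 was 275 CPM (251 to 302) against 64.6 CPM (62.6 to 66.8). In that comparison 2.62% of 8860 genes were higher.

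Acta2, Tagln and Tpm2 were lower in C7 fibroblasts than in other fibroblasts. A fibroblast was assigned to a marker at 2 or more thinned UMIs of that gene alone, which gave 248 cells for C7, 32 for Crabp1, 30 for Adipoq, 2 for more than 1 marker and 3947 for none. C7 encodes a complement component, Crabp1 a retinoic acid binding protein and Adipoq the adipocyte hormone adiponectin. Near the limit lay 207 cells with 1 UMI of C7, 40 with 1 of Crabp1 and 45 with 1 of Adipoq.

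Acta2 was 3.37 CPM (2.18 to 4.98) in C7 fibroblasts against 25.1 CPM (24.3 to 25.9) in all others, 7.45-fold lower, and 12 of its 25 UMIs came from 1 cell. Without that cell Acta2 was 1.77 CPM. Tagln was 3.91 CPM (2.62 to 5.61) against 45.0 CPM (43.9 to 46.1), 11.5-fold lower. Tpm2 was 41.1 CPM (36.6 to 46.0) against 93.1 CPM (91.5 to 94.7), 2.26-fold lower.

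These were 3 of the 5 members tested, all lower, where 2.81% of 8849 genes differed, 1.27% lower and 1.55% higher. Acta2 and Tagln reached 10 CPM through the other fibroblasts alone. The PDGF receptors went different ways within 2-fold: Pdgfrb was 132 CPM (124 to 141) against 189 (187 to 191), and Pdgfra was 193 CPM (183 to 203) against 150 (148 to 152). Myl9 was 0.809 CPM (0.297 to 1.76) against 2.87 CPM (2.60 to 3.17), and Des gave 1 UMI. Myh11 was 0.674 CPM (0.219 to 1.57), from 5 UMIs, against 0.395 CPM (0.297 to 0.515). None of the 248 C7 cells reached 5 UMIs of Acta2 and Tagln, against 3.17% of all thinned fibroblasts. The same held for the 32 Crabp1 and the 30 Adipoq cells. Groups that small could hold no such cell at a share of 3.17%, so whether this was particular to C7 cells cannot be told.

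Beyond the members, 5 of 9 tested myofibroblast genes were lower in C7 fibroblasts: Postn, Ccn2, Col8a1, Ltbp2 and Thy1, at 2.07-fold to 3.11-fold. None of the 12 tested genes of the smooth muscle apparatus and none of the 13 non-muscle cytoskeleton genes passed 2-fold. Of the pericyte genes Abcc9 was 2.49-fold higher and Cspg4 3.49-fold lower. The share of dividing cells was 11.3% in the C7 group and 23.6% in cells with none of the 3 markers, and all 6 dividing-cell genes were lower in the C7 group. The part of cell division in the difference between these groups was not tested.

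**Figure D4:**
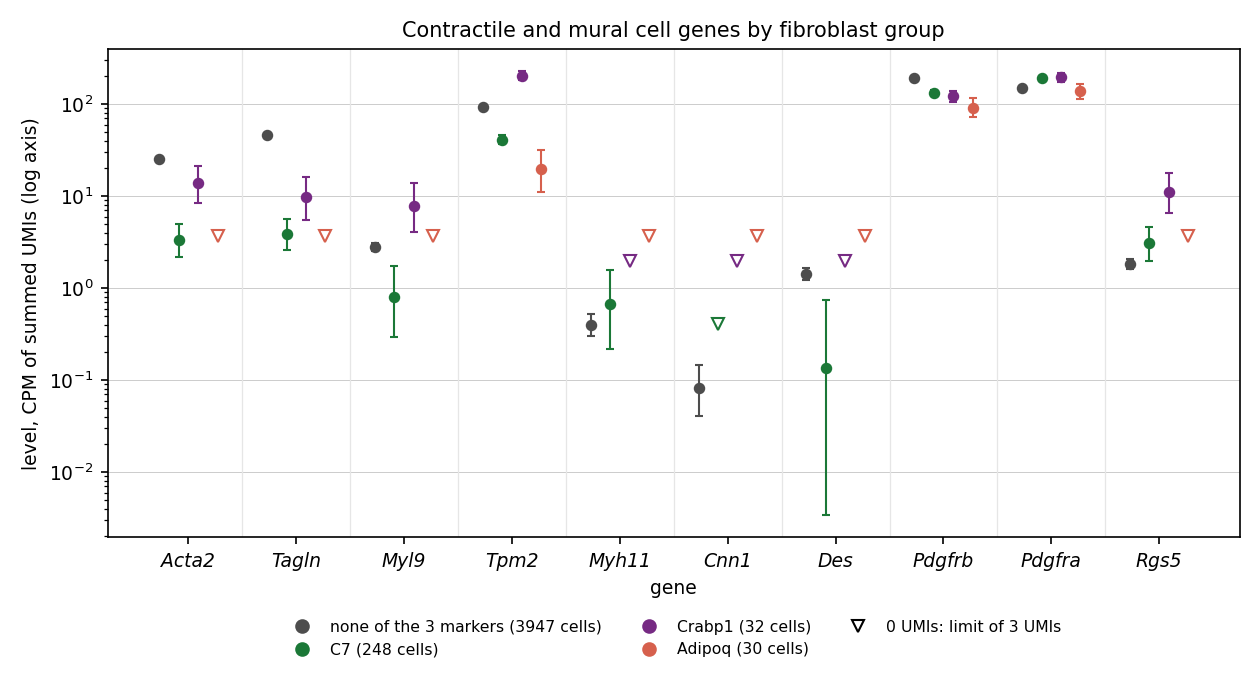
Level of each gene (x axis) in CPM of summed UMIs (log y axis) in fibroblasts marked by C7, Crabp1 or Adipoq and in those with none of these markers, with exact Poisson 95% intervals; open triangles mark 0 UMIs and stand at the level of 3 UMIs. Acta2 and Tagln are lowest in C7 and Adipoq cells, Tpm2 is 203 CPM in Crabp1 cells and 19.6 CPM in Adipoq cells, and the Pdgfrb points lie between 92.0 and 190 CPM.

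In summed UMIs, Crabp1 fibroblasts stood above other fibroblasts for Tpm2 and below them for Tagln. Tpm2 was 203 CPM (181 to 227) against 89.2 CPM (87.7 to 90.8) in other fibroblasts, 2.28-fold higher and present before thinning in 31 of 32 cells. This call was lost, at a log2 ratio of 0.43, in the 6 cells with a fibroblast sum of 1% or more, and at 0.85 and 0.98 with the marker at 1 or 5 thinned UMIs. Tagln was 9.83 CPM (5.50 to 16.2) against 43.2 CPM (42.2 to 44.3), 4.40-fold lower. Before thinning, however, Tagln was present in 25% of the Crabp1 cells and in 22.2% of all 4259 fibroblasts. After thinning the shares were 6.25% (0.766% to 20.8%) and 13.9% (12.9% to 15.0%), so a difference in shares was not detectable. Rgs5 was 11.1 CPM (6.49 to 17.8) against 1.88 CPM (1.66 to 2.12), but 11 of its 17 UMIs lay in 1 cell, without which it was 4.12 CPM and no longer reached 10 CPM. The Rgs5 call was also lost with fibroblasts of more than 1 tag left out (log2 ratio 2.33, 18 cells). Other random thinnings assigned 26 to 31 cells to Crabp1.

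Acta2 was 13.8 CPM in the Crabp1 group, with 14 of 21 UMIs in 1 cell and 4.78 CPM without it. These 3 members (Tpm2 and Rgs5 higher, Tagln lower) were counted among 6 tested, where 11.3% of 9092 genes differed, 4.1% higher and 7.17% lower. Rgs5 was tested only through this group and rests on 1 cell, and Tagln reached 10 CPM through the other fibroblasts alone. Pdgfra was 197 CPM (176 to 221) and Pdgfrb 121 CPM (104 to 140). Csrp2, a LIM protein of smooth muscle and progenitors, was 3.65-fold higher at 492 CPM (458 to 529). The Crabp1 cells sat low on the fibroblast definition, with a median collagen and Dcn sum of 0.472% against 1.24% in cells with no marker, and all 7 mast cell genes were at least 2-fold lower in them than in other fibroblasts. The part of either in these differences was not tested.

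No UMI of Acta2 or Tagln was found in the 30 Adipoq fibroblasts. A floor of 3 UMIs stands for 3.68 CPM there. This is 6.55-fold under Acta2 and 11.7-fold under Tagln in other fibroblasts, at 24.1 and 43.1 CPM. The floor covers counting error only, while UMIs of both genes lay in few cells. After thinning, the share was 0% for both with an upper limit of 11.6%. That limit lies under the 13.9% of all thinned fibroblasts for Tagln. For Acta2 it covers the 9.27% of all, so a lower share was not detectable. Tpm2 was 19.6 CPM (11.2 to 31.9) against 90.8 CPM (89.3 to 92.4), 4.63-fold lower, with 7 of 16 UMIs in 1 cell. Pdgfrb was 92.0 CPM (72.4 to 115) against 186 CPM (184 to 189), 2.03-fold lower, just past the limit. That call was lost under 5 other settings, at log2 ratios of -0.18 to -0.94.

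These 4 of 5 tested members were lower, where 12.8% of 8995 genes differed and 8.17% were lower. Acta2 and Tagln reached 10 CPM through the other fibroblasts alone. Pdgfra was 139 CPM (114 to 167), inside the 2-fold limit. Myl9, Des, Myh11, Cnn1 and Rgs5 gave 0 UMIs, and a lower level was not detectable at this depth, because the same floor exceeds their level in the other fibroblasts. Among the listed genes, 4 of 12 tested smooth muscle apparatus genes (Mylk, Flna, Csrp2 and Mrtfb) and 5 of 9 tested myofibroblast genes were lower. Adipocyte genes came with the marker, with Cfd at 1173 CPM (1100 to 1250) and Pparg at 317 CPM (279 to 358). The Adipoq cells had a median collagen and Dcn sum of 0.716% against 1.24% in cells with no marker, with Col1a1 at 756 CPM against 3256 CPM and Col1a2 at 1376 CPM against 5360 CPM in other fibroblasts. Their 7 macrophage genes summed to 171 CPM against 86.5 CPM. The part of these in the lower levels was not tested.

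The matrix also carries 3 tag features, named Cafum, Matrigel and Macrophages, whose meaning the labels do not give. Thinned fibroblasts called for the Matrigel tag numbered 1999 and those for the Cafum tag 324, a description added after the tags were seen. More than 1 tag was carried by 958 of the 4259 thinned fibroblasts (22.5%), with a median mast cell sum of 1.12%. Acta2 was 35.1 CPM (33.8 to 36.6) with the Matrigel tag and 9.19 CPM (7.48 to 11.2) with the Cafum tag. Tagln was 53.0 CPM (51.3 to 54.8) and 44.9 CPM (41.0 to 49.1), but 330 of the 489 Tagln UMIs with the Cafum tag lay in 1 cell, without which Tagln was 14.7 CPM. For Acta2, 40 of 100 UMIs with the Cafum tag lay in 1 cell, and 5.54 CPM remained without it. Counts of 5 or more Acta2 plus Tagln UMIs were found in 4.10% (3.28% to 5.07%) and 1.23% (0.337% to 3.13%). In the 937 fibroblasts with no tag Acta2 was 5.72 CPM (4.85 to 6.70), Tagln was 18.7 CPM (17.1 to 20.4) and that share was 0.961%. Acta2 was 9.44 CPM (5.02 to 16.1) in the 41 with the Macrophages tag and 21.4 CPM (19.9 to 22.9) with more than 1 tag. An Acta2 level under that of the Matrigel tag was thus not particular to the Cafum tag.

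Tpm2 was 115 CPM (113 to 118) with the Matrigel tag and 49.0 CPM (44.9 to 53.3) with the Cafum tag. Acta2 and Tpm2 were thus the 2 of 5 tested members at least 2-fold higher with the Matrigel tag, where 2.03% of 9015 genes were. With the highest cell of each gene left out, Tagln was 3.44-fold higher and 3 of the 5 passed, so the count rests on the 1 Cafum-tagged cell. Pdgfrb was 201 against 142 CPM and Pdgfra 175 against 99.5 CPM. The median mast cell sum was 0.0933% in Matrigel-tagged and 1.38% in Cafum-tagged fibroblasts, and its part in these differences was not tested.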

How the data were processed

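Per the labels' protocols, single-cell 3′ libraries were made from pooled colony cells carrying MULTI-seq tags. The deposited values are raw UMI counts for each gene and barcode, and the file headers name Cell Ranger 7.0.0 as their source. The build mm10, STAR, R 4.1.3 and Seurat 4.1.1 are named in the submitters' processing notes, and the annotation, strand use and intron counting are not given in the sources used here. The matrix held 34813 barcodes and 593248944 gene UMIs (median 13116 per barcode), with 3 tag features kept out of gene totals. The second labelled sample, a tag library, was not used here.

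A barcode was kept with 500 genes or more, 1000 UMIs or more and no more than 10% mitochondrial UMIs (33964 barcodes). Scrublet, run through scanpy 1.11.5 (Python 3.11.15), called doublets at an expected rate of 27.9%, which marked 3245 barcodes (9.32%) at a threshold of 0.564, and 37.1% of simulated doublets lay above it. Removing them left 30755 cells. Classes were assigned by the gene sums given above, a mast cell or macrophage having a fibroblast sum under 0.3% and a mast cell also a macrophage sum under 0.3%. UMIs were summed per group and scaled to CPM, with exact Poisson 95% intervals, and shares carry exact Clopper-Pearson 95% intervals. Thinning drew UMIs at random to 12500 per fibroblast and 6000 in the comparison of classes, leaving out 183 fibroblasts, 1958 mast cells and 582 macrophages in the latter. Cells of no class were thinned to the fibroblast depth. The calling rule was tested on simulated data.

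A tag was called at 2 times its median for Matrigel (546 UMIs) and Macrophages (492 UMIs). Cafum was called at 1.4 times its median in cells strong for another tag (1509 UMIs), a rule set after seeing the data. Named genes were all 10 members, listed related genes at 50 CPM or more in fibroblasts or called in a fibroblast group, and the 5 genes most alike to Acta2, Myh11 and Rgs5. Actg2, Lmod1, Myocd, Higd1b, Kcnj8, and other listed genes below that level were named after their values were seen. Members and lists were chosen with earlier results of these data known. Alternatives changed the doublet, class, marker, mitochondrial, weighting and floor settings, the thinning draw, and whether fibroblasts with more than 1 tag were kept.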

Additional observations from a re-analysis of the deposited data

Results flagged for a closer look

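The 1418 cells of no class are outside the comparisons above, yet they held several of the genes at levels above those of mast cells and macrophages. After thinning to the fibroblast depth, 87 of 1004 such cells were assigned to Crabp1, a share of 8.67%. In these 87 cells Rgs5 was 26.5 CPM (21.8 to 32.0), with 32 of 108 UMIs in 1 cell and 18.9 CPM without it. Acta2 was 52.1 CPM (45.3 to 59.6) there. Tagln was 69.0 CPM (61.2 to 77.6), of which 123 of 281 UMIs lay in 1 cell, and 39.4 CPM without it. The other 917 thinned cells of no class had Acta2 at 51.7 CPM (49.3 to 54.2), Tagln at 47.1 CPM (44.8 to 49.6, and 43.2 CPM without its highest cell) and Rgs5 at 13.2 CPM (12.0 to 14.5), so the Acta2 level was not particular to the Crabp1 cells. Each level in the 87 cells was set apart because it is a signal in cells that the main comparisons leave out, above the level in both immune classes. No cause was tested. The cells hold mast cell genes (Cma1 4686 CPM and Cpa3 3918 CPM over the 1004 cells) beside fibroblast genes (Sparc 970 CPM), and 58.8% had UMIs of 6 or more of 12 fibroblast genes.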

How the results depend on the processing

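No paired analysis was possible because the series has 1 gene expression library and no replicates. Each count of members was recomputed under up to 18 settings, of which 11 were listed at the outset and the others were added after seeing the data. Of 71 recomputed counts, 65 stayed within 1.5 times the reported one. The exceptions all came from dropping the floor of 10 CPM, which admits genes with few UMIs: 9 members were then higher in fibroblasts than in mast cells, 8 than in macrophages, 6 differed in C7, 7 in Crabp1 and 9 in Adipoq fibroblasts, and 5 members other than Acta2 and Tagln were higher in the cells with 5 or more Acta2 and Tagln UMIs. Without the floor, a member at 0 UMIs in a marked group is counted as lower at any depth. This applied to Cnn1 in all 3 marked groups, and to Des and Myh11 in Crabp1 and Adipoq fibroblasts. It also applied to Myl9 and Rgs5 in Adipoq fibroblasts, so nothing is read from these added calls. Of 355 member ratios, 338 kept their call, 12 lost it, 5 gained it and 0 changed direction. Tpm2 in Crabp1 fibroblasts fell under 2-fold with a fibroblast sum of 1% or more (log2 ratio 0.43, 6 cells) and with the marker at 1 or 5 thinned UMIs (0.85 and 0.98). Rgs5 there lost its call without its highest cell (1.30) and by the mean of CPM per cell (2.47) and with fibroblasts of more than 1 tag left out (2.33), the last 2 under the floor, while 3 other thinning draws gave log2 ratios of 3.18 to 3.35 from 26 to 31 cells. Acta2 there gained a call as lower under 5 settings. Pdgfrb in Adipoq fibroblasts fell under 2-fold under 5 settings (log2 ratio -0.18 to -0.94). Tpm2 in C7 fibroblasts fell just under it with the marker at 1 thinned UMI (-0.91). Depth limits Cnn1 and Myh11 in all groups, and the small Crabp1 and Adipoq groups, where 3 UMIs stand for 1.97 and 3.68 CPM. Doublets below the calling threshold remain, and counting intervals do not cover differences between animals or wells.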

Other observations

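Cells of no class carried more Rgs5 than the fibroblasts, at 14.0 CPM (12.8 to 15.2) against 1.97 CPM. Cells with 2 or more Rgs5 UMIs were 62 of these, 50 with Pdgfrb, and 37 fibroblasts, 36 with Pdgfrb. Before thinning, Pdgfrb was found in 40.4% of all cells of no class and in 88.1% of all fibroblasts. In thinned fibroblasts Pdgfrb was in 73.2% of the cells with Rgs5 against 78.2% of all. The pericyte markers Kcnj8 and Higd1b gave 8 and 0 UMIs in the 1418 cells, and Abcc9 was 5.53 CPM (4.82 to 6.33) against 35.1 CPM in fibroblasts. Myl9 was 7.89 CPM (7.03 to 8.82), Tpm2 was 123 CPM (120 to 127) and Myh11 was 0.879 CPM (0.609 to 1.23) in cells of no class. Counts of 5 or more thinned Acta2 plus Tagln UMIs were found in 5.08% (3.81% to 6.63%) of these cells and in 3.17% (2.66% to 3.74%) of fibroblasts.

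Cells on both sides of the fibroblast cut had overlapping counting intervals for all members but Tagln and Rgs5, with wide intervals for the rare genes. At a collagen and Dcn sum of 0.2% to 0.3% (361 cells) Acta2 was 39.1 CPM (35.6 to 42.8), and at 0.3% to 0.4% (270 cells) Acta2 was 43.7 CPM (39.6 to 48.1), with 75 and 121 UMIs in 1 cell each. Tpm2 was 151 CPM (144 to 159) and 146 CPM (139 to 154), and Pdgfra was 155 CPM (148 to 162) and 163 CPM (155 to 171). Tagln was 41.4 CPM (37.9 to 45.3) below the cut and 56.0 CPM (51.4 to 60.9) above it, with 101 and 135 UMIs in 1 cell each. Rgs5 was 14.4 CPM (12.3 to 16.7) below the cut and 6.78 CPM (5.23 to 8.64) above it, with 26 of 171 and 21 of 65 UMIs in 1 cell.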
